A study of Glycine max with 18 samples.

Results

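A set of 150 soybean genes with their highest expression at 24 hours after imbibition (HAI) in water was taken from the 56044 genes measured in germinating embryonic axes. A gene entered when its mean in the 24 HAI control libraries was at least 2 RPKM (read density corrected for transcript length and for the number of mapped reads in the library) and when each of its 3 values at 24 HAI exceeded every control value at 12 and 36 HAI. Of 27037 genes with a sufficient mean, 3153 met the second condition, and the 150 with the largest control score were kept. The control score is log2(mean at 24 HAI + 0.1) minus the larger of the same quantity at 12 HAI and at 36 HAI. The control libraries therefore chose the genes, and their values are a description, while the libraries treated with paclobutrazol (PBZ) played no part in the choice.

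The axes came from seeds of the cultivar BRS 284, germinated on cotton wetted with water alone (control) or with a 200 µM solution of PBZ, and were separated from the cotyledons at 12, 24 or 36 HAI. The 6 conditions are named 12C, 24C and 36C for control and 12P, 24P and 36P for PBZ, with 3 replicates each and 18 libraries in all. The study used 3 plates of 20 seeds for each sample and does not say how the plates were combined. A value is taken here as an average over seeds and over all cell types of the axis. In such bulk samples, fewer cells of a type and less RNA per cell cannot be told apart. All seeds were held at 28 °C under a cycle of 12 h light and 12 h dark. The samples at 12 and 36 HAI were thus a whole cycle apart and the samples at 24 HAI were not, and the time since imbibition and the point in the light cycle cannot be told apart here.

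Germination starts with the uptake of water by the dry seed, which restarts respiration, RNA synthesis and protein synthesis, and it ends when the radicle emerges. The embryonic axis holds the radicle and the young shoot, and it depends at first on reserves in the cotyledons and in its own cells. Gibberellins (GAs) are hormones that promote germination. They act by triggering the degradation of DELLA proteins, nuclear repressors of growth, and PBZ blocks an early oxidation in GA synthesis.

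Soybean gene names were available for few of these genes. The study's tables listed 5 of the 150 by identifier and gave a description for 4 of them. These are a cysteine protease, a lipase, an enzyme of jasmonate synthesis and a homeobox transcription factor. The remaining genes are given by identifier, without a role.

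In control, the 150 genes had a median of the group means of 3.46 RPKM at 12 HAI, 9.47 RPKM at 24 HAI and 4.70 RPKM at 36 HAI. Their 24C means spanned 2.03 to 1280.5 RPKM. The 24C mean lay between 2 and 5 RPKM for 43 genes, from 5 to 20 RPKM for 63, from 20 to 100 RPKM for 36 and at 100 RPKM or more for 8. The median difference between 24C and 12C was 1.25 on the log2(RPKM + 0.1) scale (range 0.75 to 4.42) and that between 24C and 36C was 0.93 (range 0.74 to 2.07). The pseudocount of 0.1 makes differences of lowly expressed genes look smaller than they are.

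The genes did not return to the same level on both sides of the maximum. For 110 of them the 36C mean was above the 12C mean, and for 40 it was below. The 24C level exceeded the 12C level by at least 2 on the log2 scale for 27 genes. The control scores ran from 0.74 to 1.97 with a median of 0.88, and 44 genes had a score of at least 1. The list ends within a continuous range. Its last gene, Glyma.18G107500, had a score of 0.737 with means of 3.09, 5.60 and 3.32 RPKM in 12C, 24C and 36C. The first gene outside, Glyma.01G085800, had a score of 0.736 with 6.23, 21.5 and 12.9 RPKM. The separation of the 24C values from the others was small for some genes. The median gap between the lowest 24C value and the highest other control value was 0.54 on the log2 scale, and the narrowest gap was 0.0031.

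**Figure D1:**
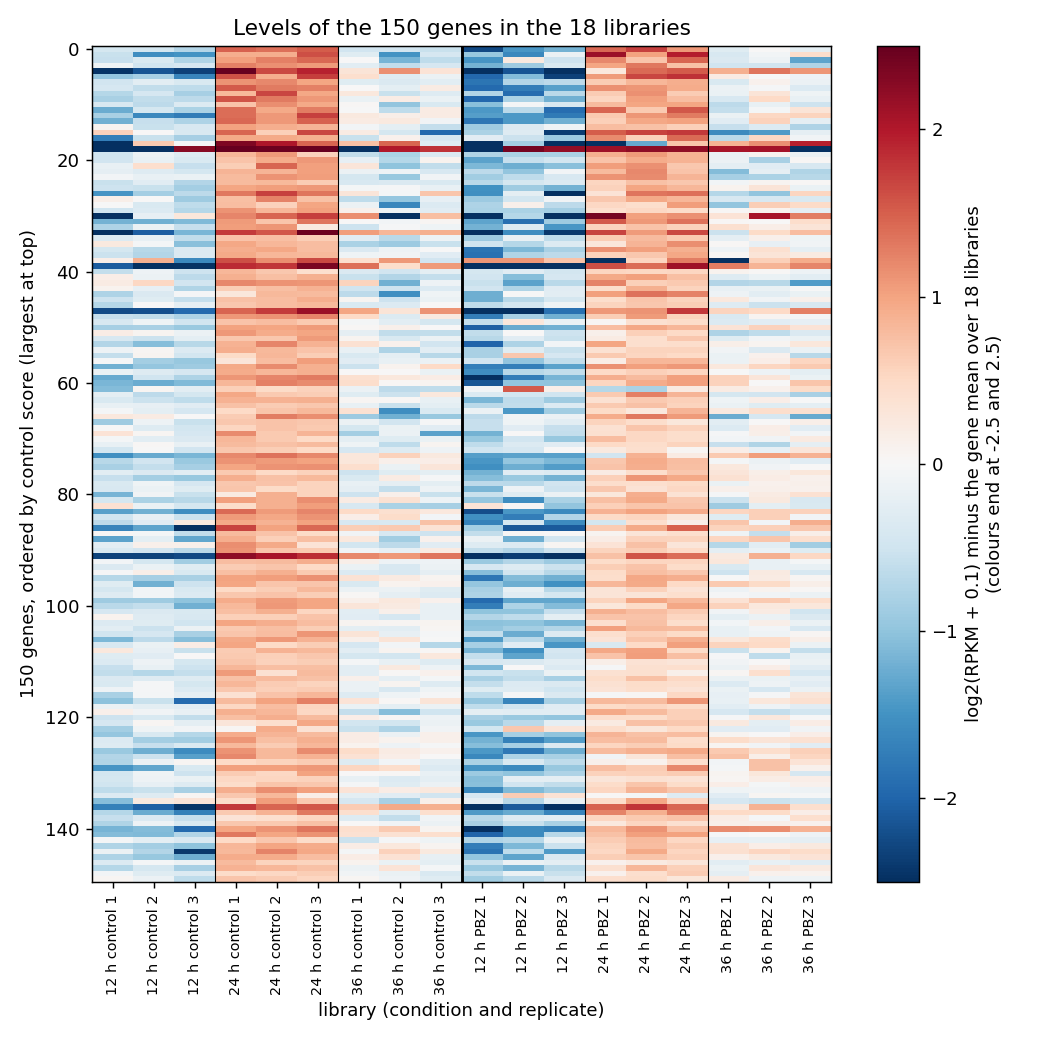
Heat map of the 150 genes (rows, ordered by control score with the largest at the top) in the 18 libraries (columns, by condition and replicate). Colour is log2(RPKM + 0.1) minus the gene's mean over the 18 libraries. The 24C columns are red throughout because they chose the genes, the 24P columns, which did not, are red for most rows, and the 12P columns hold the lowest values for most rows.

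The cysteine protease gene Glyma.05G096800, described as a granulin repeat cysteine protease, was the third most highly expressed of the 150. Papain-like proteases with a granulin domain are known from Arabidopsis, where RD21 is a vacuolar member, and proteases of this class take part in the breakdown of proteins. In control its values were 66.1, 58.0 and 56.9 RPKM at 12 HAI, 257, 218 and 214 RPKM at 24 HAI, and 89.1, 74.9 and 103 RPKM at 36 HAI. With PBZ they were 23.1, 26.7 and 34.5 RPKM at 12 HAI, 196, 191 and 169.7 RPKM at 24 HAI, and 80.5, 87.0 and 69.6 RPKM at 36 HAI. The 3 times did not overlap in either treatment, and all 12P values lay under all 12C values. In the PBZ libraries the gene rose from 12 to 24 HAI by 2.74 ± 0.15 on the log2 scale (SE, adjusted p = 4.8e-06) and fell by 1.24 from 24 to 36 HAI (SE 0.15, adjusted p = 0.00041).

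Glyma.01G011500 was described as a mono- and diacylglycerol lipase of class 3, a type of enzyme that releases fatty acids from acylglycerols. It was lowly expressed, with 1.47, 2.29 and 1.10 RPKM in 12C, 2.65, 4.85 and 3.56 RPKM in 24C, and 2.13, 0.791 and 1.08 RPKM in 36C. Its PBZ values were tighter. They were 0.723, 0.667 and 0.776 RPKM at 12 HAI, 3.62, 3.85 and 2.78 RPKM at 24 HAI, and 1.42, 1.38 and 1.26 RPKM at 36 HAI, with no overlap between times. With PBZ it rose by 2.09 ± 0.19 (adjusted p = 3.0e-05) and then fell by 1.26 (SE 0.19, adjusted p = 0.00099) on the log2 scale.

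Glyma.01G086900 was described as allene oxide cyclase 4. Allene oxide cyclases catalyse a step of jasmonate synthesis in the plastid. Its values were 21.9, 30.2 and 23.3 RPKM in 12C, 59.2, 53.4 and 44.7 RPKM in 24C, and 25.8, 23.9 and 27.9 RPKM in 36C. With PBZ they were 24.5, 27.2 and 24.2 RPKM at 12 HAI, 48.3, 47.6 and 48.3 RPKM at 24 HAI, and 35.2, 33.7 and 30.4 RPKM at 36 HAI. The 24 HAI values stood above all others in both treatments, and the 36P values lay above all 36C values. The changes with PBZ were 0.93 ± 0.09 upward (adjusted p = 3.7e-05) and -0.54 ± 0.09 afterwards (adjusted p = 0.0015), both under the limit of 1 on the log2 scale.

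Glyma.01G047900 was described as homeobox protein 22, of the zinc-finger homeodomain family of plant transcription factors. It had 2.99, 3.96 and 3.12 RPKM in 12C, 8.07, 7.61 and 7.60 RPKM in 24C, and 3.73, 5.38 and 4.10 RPKM in 36C. With PBZ it had 2.01, 4.56 and 3.54 RPKM at 12 HAI, 4.41, 6.01 and 6.07 RPKM at 24 HAI, and 4.06, 5.10 and 3.67 RPKM at 36 HAI. The PBZ values at 24 HAI overlapped those at both other times, and all of them lay under the 24C values. The change from 12 to 24 HAI with PBZ was 0.75 ± 0.28 (adjusted p = 0.041), under the limit of 1, and that from 24 to 36 HAI was -0.35 ± 0.28 (adjusted p = 0.32).

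**Figure D2:**
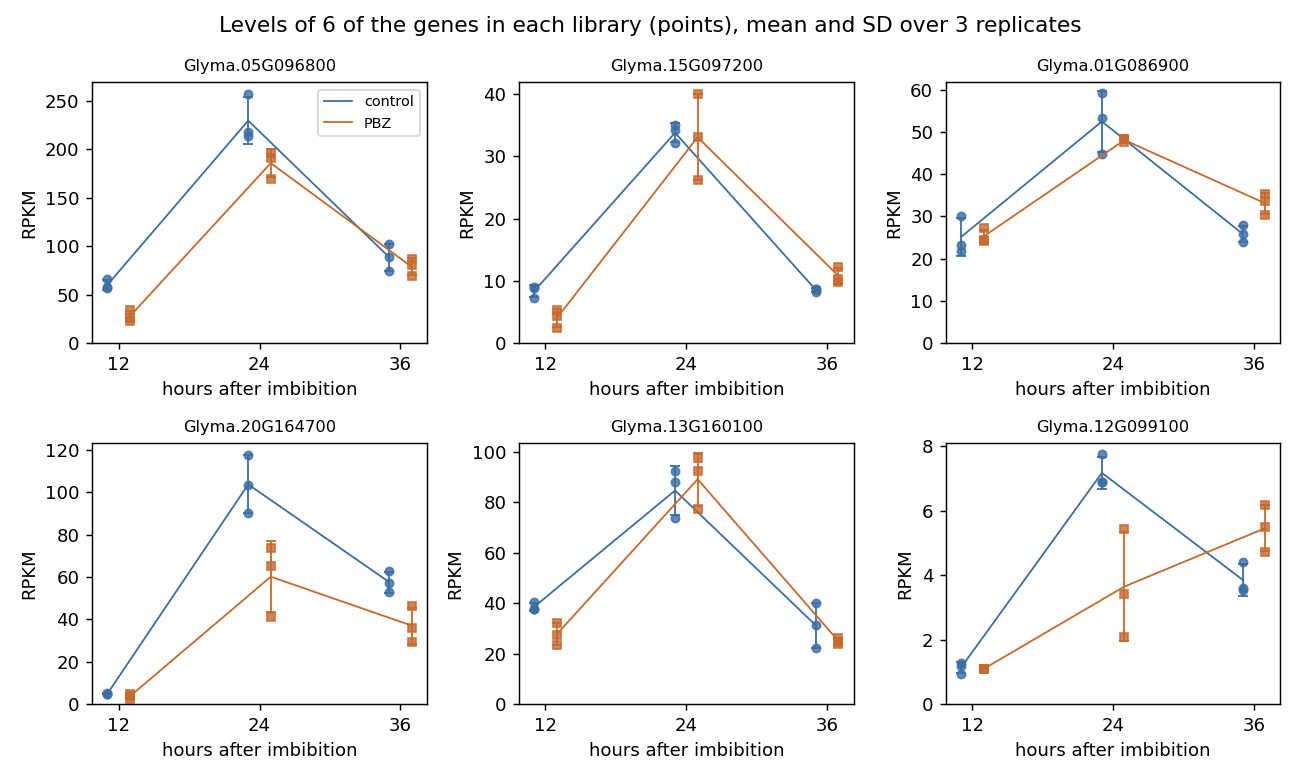
RPKM of 6 of the 150 genes against hours after imbibition, with control as blue circles and PBZ as orange squares, and with lines through the means and bars of 1 SD over 3 replicates. Glyma.05G096800, Glyma.15G097200 and Glyma.13G160100 peak at 24 HAI in both treatments, Glyma.20G164700 reached 104 RPKM in 24C and 60.2 RPKM in 24P, and Glyma.12G099100 was highest at 36 HAI with PBZ.

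The PBZ libraries give the course of the same genes in samples that did not choose them. The question asked of them was whether the genes were again higher at 24 than at 12 HAI, and again lower at 36 than at 24 HAI. Both comparisons were made with limma over the 9 PBZ libraries and share the 24P libraries, so their values stand side by side. The limits for a call were a Benjamini-Hochberg adjusted p of 0.05 over all genes tested and a log2 change of 1.

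From 12 to 24 HAI with PBZ, 119 of the 149 genes tested rose, beside 17.4% of all 31495 genes tested, and 0 fell past both limits (2981 of all genes tested did). At an unadjusted p under 0.05 in limma, 1 of the 149 was lower at 24 HAI, Glyma.U039600, and no other tool was run. The median change of the 149 was 1.47 on the log2 scale (range -2.23 to 5.08), and that of all genes tested was 0.07. With the adjusted p alone, 140 rose, beside 33.3% of all genes. The change was positive for 146 of the 149 genes, and its sign was not counted over all genes.

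The filter on low values bears on that count. A gene was tested when its mean was at least 1 RPKM in 12P or in 24P, and 29 of the 149 had a 12P mean under 1 RPKM, so they could only be tested because they were higher at 24 HAI. Of these, 28 rose, beside 80.3% of all genes tested with such a mean. Of the 120 with a 12P mean of at least 1 RPKM, 91 rose, beside 11.3%. The untested gene was Glyma.02G311400, with a 12P mean of 0.0889 RPKM and a 24P mean of 0.379 RPKM. Without any filter, 118 of the 150 genes rose, beside 15.8% of 46208 genes.

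From 24 to 36 HAI with PBZ, 34 of the 150 genes fell, beside 4.46% of all 33020 genes tested. The median change was -0.64 on the log2 scale (range -2.73 to 2.42), and that of all genes tested was -0.01. With the adjusted p alone, 86 fell, beside 19.6% of all genes. The change was negative for 140 of the 150 genes, and its sign was not counted over all genes. One gene, Glyma.02G311400, rose past both limits, beside 13.7% of all genes. The filter bears on this count too. Tested through their 24P mean alone were 5 genes with a 36P mean under 1 RPKM, of which 4 fell (Glyma.04G018800, Glyma.11G031900, Glyma.13G184100 and Glyma.14G097600), beside 48.7% of all genes tested with such a mean. Of the 145 with a 36P mean of at least 1 RPKM, 30 fell, beside 3.2%.

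The second side of the maximum was thus past both limits for fewer genes than the first. The same held over all genes tested, with 4.46% called lower on the second side and 17.4% called higher on the first. The rise and the fall were both called for 31 genes, the rise alone for 88, the fall alone for 3 and neither for 28. The last count includes Glyma.02G311400, which was not tested for the rise. With the adjusted p alone, 86 genes had both, 54 the rise alone and 10 neither, again counting Glyma.02G311400. The combinations of the 2 calls were not counted over all genes, and nothing is read from them. The genes were chosen on the size of the step in control, and the calls by that size are a description. Of the 57 genes with a 24C mean at least 1 above the 36C mean on the log2 scale, 26 had a called fall with PBZ. Of the 93 with a smaller step, 8 had a called fall. Falls by the size of this control step were not counted over all genes. The order of these shares is therefore not read as a trait of the chosen genes. A rise was called for all 26 genes tested with a control step from 12 to 24 HAI of at least 2 (Glyma.02G311400, also with such a step, was not tested), and for 25 of the 46 with a control step under 1. Among the 26 were Glyma.10G256800 and Glyma.15G270000, with 12P means under 1 RPKM, which were tested only through their 24P mean. Of all genes tested with such a 12P mean, 80.3% rose. How many of the 26 and of the 46 were of this kind was not counted, so these shares are not compared.

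**Figure D3:**
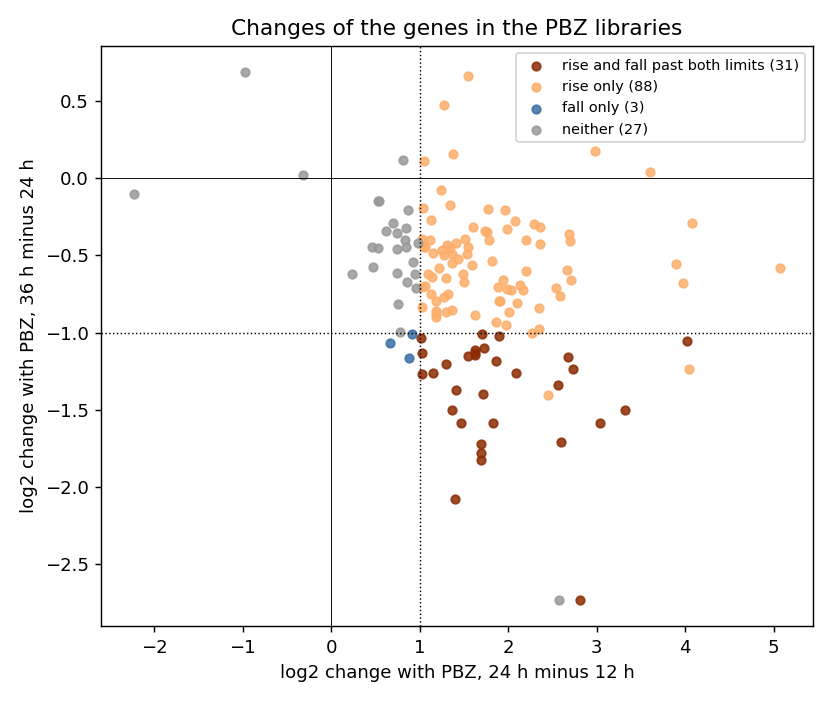
Change with PBZ from 12 to 24 HAI (horizontal, log2) against change with PBZ from 24 to 36 HAI (vertical, log2) for the 149 genes tested in both, with dotted lines at 1 and -1. Of these genes, 31 passed both limits in both comparisons (dark), 88 in the rise alone (light orange) and 3 in the fall alone (blue). Both axes use the 24P values.

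The second condition of the rule, applied to the PBZ libraries, gave a count without a test. Every 24P value lay above all 12P and 36P values for 109 of the 150 genes, all of them with a 24P mean of at least 2 RPKM, beside 8.59% of the 26730 genes with such a mean (2296 genes). Among the other 3003 genes that met the condition in control but had smaller control scores, 1134 (37.8%) met it with PBZ. The PBZ mean was highest at 24 HAI for 140 of the 150 genes, at 36 HAI for 7 and at 12 HAI for 3. Among the other 3003 genes it was highest at 24 HAI for 73.6%, and this was not counted over all genes. The share with separated 24P values was higher among the more highly expressed genes. It was 23 of 43 with a 24C mean under 5 RPKM, 45 of 63 from 5 to 20 RPKM, 34 of 36 from 20 to 100 RPKM and 7 of 8 at 100 RPKM or more. The same ranges were not counted over all genes, so this order is not read as a trait of the 150.

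The score computed from the PBZ libraries had a median of 0.62 over the 150 genes (range -1.85 to 2.59), beside 0.88 in control. It was larger than the control score for 33 genes and at least 1 for 31. Choosing genes for large control scores by itself raises their scores in control, by an amount that was not measured, so the difference is a description. Across the 150 genes the scores had a Pearson r of 0.42 and a Spearman rho of 0.42, where genes are not independent replicates. If the 150 largest scores were taken from the PBZ libraries by the same rule, 38 of the 150 genes would be among them.

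**Figure D4:**
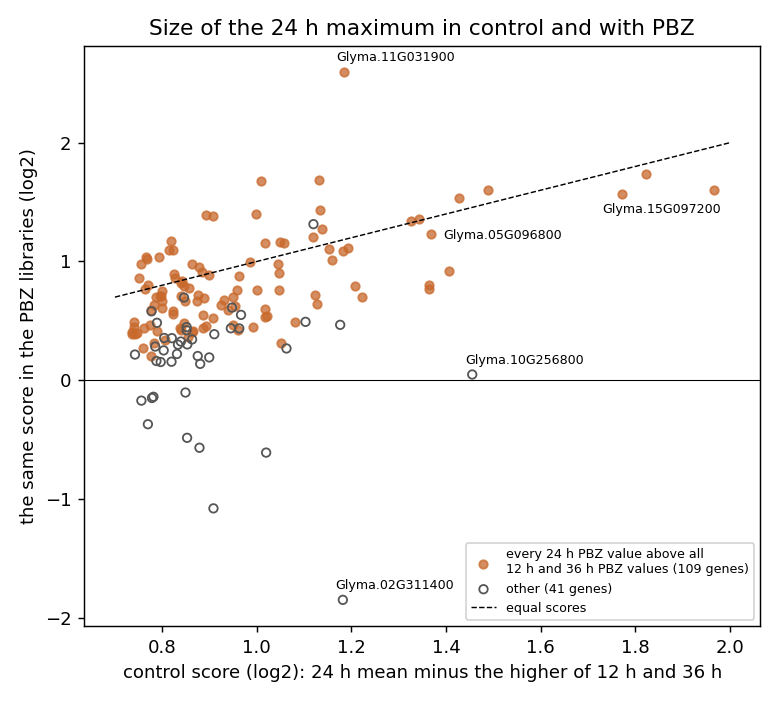
Control score (horizontal, log2) against the same score in the PBZ libraries (vertical, log2) for the 150 genes, with the dashed line at equal scores. Filled points are the 109 genes whose 24P values all lay above their 12P and 36P values, and open points are the other 41. There were 33 genes above the dashed line and 10 below 0.

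The genes with the largest control scores kept their maximum with PBZ in most cases. Glyma.15G097200, with the largest score (1.97), had 8.98, 8.90 and 7.30 RPKM in 12C, 34.3, 32.0 and 35.0 RPKM in 24C, and 8.73, 8.69 and 8.27 RPKM in 36C. With PBZ it had 2.49, 4.36 and 5.30 RPKM at 12 HAI, 33.1, 39.9 and 26.1 RPKM at 24 HAI, and 9.82, 12.3 and 10.3 RPKM at 36 HAI. The levels at 24 HAI overlapped between treatments, while all 12P values lay below the 12C values and all 36P values above the 36C values. It rose by 3.04 ± 0.26 (adjusted p = 2.1e-05) and fell by 1.59 (SE 0.26, adjusted p = 0.0015) on the log2 scale with PBZ.

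The next places were held by genes of low level. Glyma.19G002400 had means of 0.609, 3.39 and 0.886 RPKM in control and 0.799, 5.18 and 1.48 RPKM with PBZ at the 3 times. Glyma.20G066500 had 1.10, 4.12 and 1.14 RPKM in control and 1.23, 3.84 and 1.14 RPKM with PBZ. Of the 10 genes with the largest control scores, all rose with PBZ past both limits, beside 17.4% of all genes tested. Glyma.19G002400, Glyma.10G256800, Glyma.04G018800 and Glyma.20G184100 had 12P means under 1 RPKM and were tested only through their 24P mean. Of all genes tested with such a 12P mean, 80.3% rose. The fall was called for 6 of the 10, namely Glyma.15G097200, Glyma.19G002400, Glyma.20G066500, Glyma.02G222700, Glyma.04G018800 and Glyma.05G096800, beside 4.46% of all genes tested. The call for Glyma.20G066500 was lost without 36P replicate 3 (-1.36).

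The 4 others of these 10 differed in the fall. Glyma.10G164700, at 37.8 ± 2.75 RPKM in 24C (SD, n = 3), changed by -0.93 ± 0.28 (adjusted p = 0.024), close to the limit of 1, which it passed without 24P replicate 1 (-1.005) or 36P replicate 2 (-1.05). Glyma.20G184100 changed by -0.79 ± 0.34 (adjusted p = 0.087), or by -1.18 and past both limits with quantile normalization, and Glyma.13G229800 by -0.81 ± 0.32 (adjusted p = 0.064), with the latter at -1.07 and called without 36P replicate 2. Glyma.10G256800 was the exception in shape. It had 4.65, 2.36 and 2.85 RPKM in 24C against 0.880, 1.63 and 0.892 RPKM in 36C, but 0.844, 1.99 and 2.15 RPKM in 24P against 1.35, 1.88 and 1.58 RPKM in 36P. The 24P and 36P values overlapped, and the change between them was 0.04 ± 0.38 (adjusted p = 0.94).

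The 5 largest called rises with PBZ started from 12P means between 0.172 and 3.75 RPKM. Glyma.10G047100 had 0.492, 1.10 and 0.823 RPKM in 12P and 27.4, 23.5 and 38.9 RPKM in 24P, a change of 5.08 ± 0.27 on the log2 scale (adjusted p = 4.0e-06). Its control values went from 2.04, 1.27 and 1.52 RPKM to 32.9, 31.0 and 45.9 RPKM, and they were still 23.2, 12.1 and 18.8 RPKM in 36C. The 12 and 24 HAI levels did not overlap in either treatment.

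Glyma.20G164700 had 2.45, 4.70 and 4.09 RPKM in 12P and 41.3, 73.9 and 65.4 RPKM in 24P, a change of 3.98 ± 0.28 (adjusted p = 1.0e-05). In control it went from 4.89, 4.88 and 5.12 RPKM to 117, 104 and 90.1 RPKM, so that all 24P values lay under all 24C values. Glyma.12G014200 rose with PBZ by 4.02 ± 0.21 (adjusted p = 3.5e-06), from a mean of 0.740 ± 0.186 to one of 13.4 ± 1.78 RPKM, beside 13.5 ± 1.56 RPKM in 24C (SD, n = 3 each).

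The rises of 2 further genes in this group rest on values at or near 0. Glyma.15G270000 had 0, 0.360 and 0.156 RPKM in 12P and 4.29, 2.72 and 4.18 RPKM in 24P (change 4.05 ± 0.55, adjusted p = 0.00023). Glyma.03G136700 was listed at 0 in 2 of the 3 12P libraries and had 5.73, 2.16 and 2.35 RPKM in 24P (change 4.07 ± 0.77, adjusted p = 0.0015). A change fitted against such values depends on the pseudocount.

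The largest falls with PBZ included genes of high level. Glyma.14G010500 had 63.7, 83.9 and 69.5 RPKM in 24P and 14.1, 24.9 and 13.9 RPKM in 36P, and fell by 2.08 on the log2 scale (SE 0.24, adjusted p = 0.00029). In control it went from 52.1, 81.7 and 74.6 RPKM to 17.6, 14.6 and 17.3 RPKM. Its levels in the 2 treatments overlapped at 24 HAI and at 36 HAI.

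Glyma.13G160100 had 92.5, 97.4 and 77.4 RPKM in 24P and 24.0, 24.7 and 26.4 RPKM in 36P, and fell by 1.82 (SE 0.13, adjusted p = 4.3e-05). Its 12P values of 23.3, 27.5 and 32.2 RPKM overlapped its 36P values. In control the same gene had 40.4, 37.5 and 37.8 RPKM in 12C, 73.6, 92.4 and 87.8 RPKM in 24C, and 31.3, 22.2 and 40.0 RPKM in 36C, and its PBZ score of 1.68 exceeded its control score of 1.13.

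The largest PBZ score, 2.59, belonged to Glyma.11G031900, a gene of low level. It had 2.56, 2.91 and 3.05 RPKM in 24P, 0.435, 0.646 and 0.0804 RPKM in 12P, and 0.210, 0.248 and 0.698 RPKM in 36P. Its control values were more scattered, at 2.45, 1.30 and 2.86 RPKM in 24C and up to 1.29 RPKM in 12C. With PBZ it rose by 2.82 ± 0.55 (adjusted p = 0.0018) and fell by 2.73 (SE 0.54, adjusted p = 0.0037). Glyma.14G097600, also of low level, had means of 0.768, 2.68 and 0.714 RPKM at the 3 times with PBZ, and both of its changes were called.

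The most highly expressed of the 150 genes, Glyma.03G132700, had 512, 591 and 486 RPKM in 12C, 1216, 1245 and 1380.3 RPKM in 24C, and 771, 511 and 649.9 RPKM in 36C. With PBZ it had 313, 455 and 539 RPKM at 12 HAI, 992, 1181 and 1074 RPKM at 24 HAI, and 882, 692 and 805 RPKM at 36 HAI. The 24 HAI values were the highest in both treatments, and all 24P values were under the 24C values. It rose by 1.34 ± 0.21 (adjusted p = 0.00048), and its later change of -0.45 ± 0.22 was not called (adjusted p = 0.12). No description was available for it.

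Among the 150 there were 3 pairs of genes next to each other in the order of identifiers. Glyma.17G256800, the second most highly expressed gene, had means of 63.9, 259 and 137 RPKM in control and 34.3, 210.4 and 136 RPKM with PBZ. Its neighbour Glyma.17G256700 had 15.0, 43.4 and 25.1 RPKM in control and 11.3, 41.4 and 25.4 RPKM with PBZ. Over the 18 libraries, which share the time course that chose both genes, their log2 levels had a Pearson r of 0.96.

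The neighbours Glyma.15G270000 and Glyma.15G270100 had an r of 0.95, with 24C means of 5.22 and 17.8 RPKM. The neighbours Glyma.02G222600 and Glyma.02G222700 had an r of 0.81. The first of these kept 18.3 RPKM of its 33.8 RPKM in 36C, whereas the second went from 8.27 to 2.71 RPKM. By identifier, the largest numbers of the 150 genes were on chromosome 13 (19 genes, 12.7%) and chromosome 2 (16 genes, 10.7%), which held 6.25% and 6.18% of the 3153 genes that met the control condition.

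The 10 genes whose PBZ mean was not highest at 24 HAI were of several kinds. Glyma.12G099100 had 0.948, 1.18 and 1.29 RPKM in 12C, 6.88, 7.75 and 6.87 RPKM in 24C, and 3.60, 4.42 and 3.54 RPKM in 36C. With PBZ it had 1.08, 1.11 and 1.09 RPKM at 12 HAI, 2.08, 5.44 and 3.41 RPKM at 24 HAI, and 4.72, 6.16 and 5.49 RPKM at 36 HAI. The 12 HAI levels overlapped between treatments, the 24P values all lay below the 24C values, and the 36P values all lay above the 36C values. With PBZ it rose from 12 to 24 HAI by 1.55 ± 0.29 (adjusted p = 0.0015), and the change from 24 to 36 HAI was 0.66 ± 0.29 (adjusted p = 0.093).

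Glyma.02G283600 had means of 1.25, 3.01 and 4.25 RPKM with PBZ and 2.47, 5.53 and 3.02 RPKM in control. Its rise with PBZ was 1.28 ± 0.39 (adjusted p = 0.018), and the call was lost without 12P replicate 1 or 3 or 24P replicate 2 or 3, where the change was 1.05 to 1.23. Glyma.U039600, on an unplaced scaffold, had 1.99, 6.25 and 2.32 RPKM in 12P and 1.22, 1.16 and 2.46 RPKM in 24P, where the change of -0.97 ± 0.42 did not pass (adjusted p = 0.073) but did with quantile normalization (-1.17) and without 12P replicate 1 (-1.27) or 24P replicate 3 (-1.30).

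Glyma.02G311400 and Glyma.10G030200 held values above 0 but under 0.001 RPKM in 4 and 2 libraries, the only such values among the 2700 of the 150 genes. Glyma.02G311400 had 3.21, 2.56 and 1.70 RPKM in 24C, but 8.1e-06, 0.172 and 0.966 RPKM in 24P and 1.10, 1.35 and 2.43 RPKM in 36P. Its change from 24 to 36 HAI with PBZ was 2.42 ± 0.84 (adjusted p = 0.042). The call was lost without any one of the 24P replicates 1 and 2, the 36P replicates or 12P replicate 3, where the change lay between 1.61 and 2.64. It was also lost with quantile normalization (1.87) and with pseudocounts of 1 (0.96) and 0.01 (3.67).

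Glyma.10G030200 had 14.4, 10.7 and 15.0 RPKM in 24C, and 0.00025, 6.88 and 11.6 RPKM in 24P. Its 36P values were 3.4e-05, 7.11 and 9.03 RPKM, so that 1 library at each of these times stood apart from the others by several orders of magnitude. A further gene, Glyma.02G271500, chosen here after its values were seen, was listed at 0 in 5 libraries and had between 18.9 and 31.8 RPKM in the other 13. RPKM was computed from uniquely mapped reads. Why these values lay at or near 0 was not tested, so they are treated as uncertain and absence of the transcript is not read from them. In all, 11 of the 2700 values were listed at 0, in 4 genes, and 0 of them were at 24 HAI.

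Control and PBZ can be set side by side at each time, as a description, because the control values chose the genes. At 12 HAI the mean with PBZ was below control for 124 of the 150 genes, with a median difference of -0.31 on the log2 scale, beside 51.0% of the 29297 genes with at least 1 RPKM and a median of -0.00. All 3 PBZ values lay below all 3 control values for 40 of the 136 genes with at least 1 RPKM in either group, beside 6.74% of all such genes. The opposite order held for 1 gene, beside 3.82%.

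At 24 HAI the mean with PBZ was again below control for 124 genes, with a median difference of -0.22, beside 61.4% and a median of -0.07 over all genes. The 24P values all lay below the 24C values for 56 of the 150 genes, beside 22.8% of all genes, and all above for 4, beside 11.4%. At 36 HAI the order was turned. The mean with PBZ was above control for 99 genes, with a median difference of 0.13, beside 58.4% and a median of 0.04. The 36P values all lay above the 36C values for 29 of 148 genes, beside 11%, and all below for 5, beside 4.77%.

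A rule that asks for high 24C and low 12C and 36C values moves these differences by itself. It moves them toward PBZ below control at 24 HAI and toward PBZ above control at 12 and 36 HAI. At 12 HAI the order seen was the other way, and its cause was not tested. Nothing is read from the counts. The other 3003 genes that met the control condition had the mean with PBZ below control for 78.7% at 12 HAI, 83.2% at 24 HAI and 21.5% at 36 HAI. They were chosen by the same control condition, so their order is no independent value. Over all 6 conditions, 24C held the highest mean for 123 of the 150 genes, 24P for 26 and 12P for 1. The lowest mean was in 12P for 105, in 12C for 20, in 36C for 14 and in 36P for 11.

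The libraries of a condition were not alike for these genes. The first 12P replicate was the lowest of the 3 for 95 of the 150 genes, with a median log2 level of 1.22 against 1.70 and 1.66 in the others. The first 24P replicate was the lowest for 87 genes, with 2.83 against 3.11 and 3.07. The 24C replicates had medians of 3.26, 3.29 and 3.22. Their log2 levels over the 150 genes correlated at 0.986, whereas replicates of the other conditions correlated at 0.874 to 0.980. The rule kept genes whose 24C values were all high, so the agreement within 24C is no independent value. Without the first 12P replicate, the mean with PBZ at 12 HAI was below control for 118 genes with a median difference of -0.24. In that setting 108 genes rose from 12 to 24 HAI with PBZ, beside 16.7% of all genes tested.

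**Figure D5:**
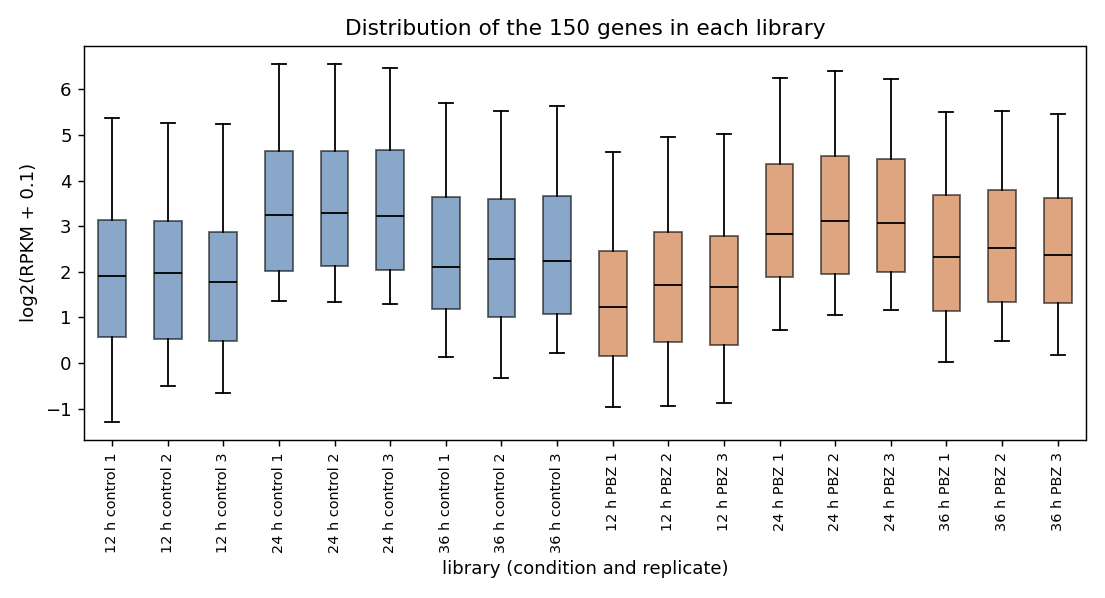
Log2(RPKM + 0.1) of the 150 genes in each of the 18 libraries, with control in blue and PBZ in orange. Lines are medians, boxes the middle 50% of genes and whiskers the 5th and 95th percentiles. The medians run from 1.22 in the first 12P library to 3.29 in the second 24C library.

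Depth and make-up also varied between the libraries. Relative sequencing depth, estimated from the spacing of low RPKM values, ran from 0.818 (a 36P library) to 2.85 (a 12C library) times that of the first 24C library. The share of summed RPKM held by 63 genes that the study set apart for their response to PBZ, many of them resembling organellar genes, was 0.732% to 11.4% in 12C, 3.85% to 7.42% in 12P, 0.248% to 0.308% in 24C and 4.43% to 7.37% in 24P. It was 0.187% to 5.03% in 36C and 0.242% to 0.415% in 36P. The 43 of them that resemble organellar genes held 0.0209% (a 36C library) to 0.442% (a 12C library) of summed RPKM. Most of the share in each library thus came from the other genes of the list. The list was chosen on these samples, and 0 of its genes are among the 150. Its share was thus low in all libraries of 24C and 36P and higher in 24P. RPKM is relative to the total, and whether this share moved the levels given above was not tested. With the 63 genes left out and the values rescaled, 119 of the 149 genes tested rose, beside 17.3% of all genes, and 39 of the 150 fell, beside 5.06%.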

How the data were processed

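RNA-seq was made from embryonic axes in 6 conditions with 3 replicates, 18 libraries. The authors removed rRNA reads, aligned the remainder to the soybean genome (Wm82.a2.v1) with novoalign (3.06.05 per the labels), kept uniquely mapped reads and computed RPKM with cufflinks (2.1.1). The deposited RPKM values were used as they are. Every value column matched a sample by name, with 0 left over.

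Log2(RPKM + 0.1) of the 9 PBZ libraries was fitted with limma (3.58.1, R 4.3.3) with a variance trend. Genes with a mean of at least 1 RPKM at either time were tested, with Benjamini-Hochberg adjustment over all of them and limits of 0.05 and a log2 change of 1. The study states cuffdiff for control against PBZ and no test between times. The procedure was tested on simulated data. Other steps used Python 3.11.15, numpy 2.4.6 and pandas 2.3.3.

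The members, lists and tests were chosen with earlier results of these data known. Genes named are the 10 largest control scores, the genes on both sides of the end of the list, the 5 largest and 5 smallest PBZ scores, the 5 largest called rises and falls, the 3 highest 24C means and those in the study's tables. Neighbouring pairs and Glyma.02G271500 were added after their values were seen. Descriptions came from the study's tables, which are held here in part and list 5 of the 150 genes (3.33%). Planned counts by keyword list, which need values for at least 80% of a set, were therefore void and were not made. For the same reason seed storage and other marker genes of the axis were not checked. The reference gene table used (Glycine_max_v4.0) matched 0 identifiers, and no promoter search was made.

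The labels number the replicates but do not say what equal numbers share. Correlations of the deviations of same-numbered samples were -0.087 to 0.17, with 1 of 9 over 0.1, so the numbers were not taken to pair the samples. The replicates are described as biological without further detail, and p-values measure the spread between these samples only. No counts were used, and precision rests on the 3 replicates. Alternatives were other pseudocounts (1 and 0.01), filters (none and 5 RPKM), scalings, fits and each replicate left out.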

Additional observations from a re-analysis of the deposited data

Results flagged for a closer look

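Glyma.02G311400 moved in opposite directions between 24 and 36 HAI in the 2 treatments. In control all 36C values (0.995, 1.70 and 0.432 RPKM) lay below all 24C values (3.21, 2.56 and 1.70 RPKM), with a difference at 1.70 RPKM that shows only in later digits. With PBZ all 36P values (1.10, 1.35 and 2.43 RPKM) lay above all 24P values (8.1e-06, 0.172 and 0.966 RPKM). The log2 difference of the means, 36P minus 24P, was 1.85. The control direction was fixed by the choice of the gene, and the difference between the treatments was not tested. The gene is one of 2 with values between 0 and 0.001 RPKM.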

How the results depend on the processing

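The 119 rises with PBZ were 78 with a filter at 5 RPKM, where 96 of the 150 genes were tested, and 92 to 140 under the other alternatives that kept all libraries. The 34 falls were 22 with that filter (97 tested), 21 with a pseudocount of 1 and 86 with no minimum change, and otherwise 31 to 40. The share of all genes called moved too. For the rise, 17.4% became 13.2% with that filter, 12.0% with a pseudocount of 1 and 33.3% with no minimum change. For the fall, 4.46% became 4.15%, 3.05% and 19.6% in the same order. With each replicate left out, the share was 15.9% to 18.8% for the rise and 3.45% to 4.81% for the fall. The 109 genes with separated 24P values were 107 to 121 under other scalings. With each replicate left out in turn, rises ranged from 108 to 119, falls from 28 to 37, separated 24P values from 109 to 123, and 123 to 140 of the 150 genes were chosen again from the control libraries. With other settings of the rule, 107 (a 24C mean of at least 5 RPKM) to 150 genes were chosen again, and 110 with quantile normalization. A replicate block gave 119 and 34 again. Leaving out the 63 genes was chosen after seeing the data.

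Quantile normalization moved the median change of all genes from 0.07 to -0.03 for the rise and from -0.01 to -0.11 for the fall, and median-ratio size factors moved that of the rise to -0.04. Genes called higher and lower over the whole table were 5473 and 2981 for the rise (4340 and 3709 after quantile normalization) and 4528 and 1472 for the fall (3513 and 2316).

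Of 1062 alternative values for 59 changes of named genes, 1016 kept direction and side of the limits, 26 were no longer called, 11 were newly called and 9 changed sign. The sign changes were all in the change from 24 to 36 HAI, and the cause was not tested. For Glyma.10G256800 the change of 0.04 became -0.40 with quantile normalization, -0.032 without the 63 genes, -0.36 without 24P replicate 1 and -0.07 without 36P replicate 2 (0.27 at most, without 24P replicate 3). For Glyma.10G030200 the change of -0.10 became 0.79 and 1.16 without 24P replicates 2 and 3, and 2.01 without 36P replicate 1 (-2.27 at least, without 24P replicate 1). For Glyma.03G136700 the change of -0.29 became 0.15 without 24P replicate 1 and 0.15 without 36P replicate 1 (-0.71 at least, without 36P replicate 2). None of these 3 changes was called in the fit reported. Calls lost under at least 1 alternative were the rises of Glyma.18G107500 and Glyma.02G283600, the falls of Glyma.20G066500, Glyma.04G018800, Glyma.12G014200 and Glyma.01G011500, and the later rise of Glyma.02G311400. Calls gained were the lower level of Glyma.U039600 at 24 HAI and the falls of Glyma.10G164700, Glyma.20G184100, Glyma.13G229800 and Glyma.15G270000.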
